A study of Mus musculus with 18 samples.

Results

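The genes described are 35 genes of mRNA deadenylation, decapping and decay, out of 51467 genes in the polysome counts table of wild-type (WT) and Dgcr8 knockout (KO) mouse embryonic stem cells (ESCs). They were chosen by symbol, through the Ensembl identifier of each row. All 35 symbols matched a row, and all 35 were among the 12851 genes with enough reads to be tested. By role, they were 11 subunits of the CCR4-NOT deadenylase, 2 of the PAN deadenylase, 4 TOB and BTG adaptors, 6 decapping factors, 4 repressors found in P-bodies, 2 exonucleases, 3 nonsense-mediated decay (NMD) factors and 3 ZFP36 proteins that bind AU-rich elements.

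The study asked how translation and mRNA stability are linked in ESCs. It compared Ddx6 KO with Dgcr8 KO cells to separate the effects of microRNAs (miRNAs) on translation from those on stability. Only the polysome libraries of WT and Dgcr8 KO cells are described here. The WT cells were the V6.5 line, and the KO cells were 1 Dgcr8 KO line made earlier by the same laboratory, so the genotype and the line cannot be told apart. Both were grown with serum, LIF and the 2 inhibitors of the 2i medium, and both were exposed for 2 min to 100 ug/ml of cycloheximide, which freezes ribosomes on messages, before sedimentation through 10 to 50% sucrose. From each of 3 gradients per genotype, the monosome, low polysome (2 to 4 ribosomes) and high polysome (4 or more) fractions were sequenced from the 3′ ends of polyadenylated messages, giving 6 groups of 3 libraries. Neither the labels nor the methods state whether the 3 gradients of a genotype came from separate cultures, so p-values measure only the spread between these gradients, which may be technical.

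Decay of most messages in the cytoplasm begins with shortening of the poly(A) tail. The PAN2-PAN3 enzyme and the larger CCR4-NOT complex carry it out, and TOB, BTG and ZFP36 proteins can bring CCR4-NOT to chosen messages. The cap is then removed by DCP2, with DCP1, EDC3, EDC4, PATL1 and the helicase DDX6 as partners, and the body of the message is digested by XRN1. The miRNA silencing complex recruits the same CCR4-NOT and DDX6 machinery to its targets. DGCR8 is needed to make nearly all miRNAs, so the KO cells lack the small RNAs that use this machinery. The proteins of the machinery were not measured here.

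Because several of these genes carry possible sites for the miRNAs that dominate in ESCs, the shared seed of that ESC cell-cycle (ESCC) family is shown first. Mature sequences were taken from RefSeq (GRCm38.p6), and bases 2 to 8, the seed, are in capitals.
mmu-miR-291a-3p: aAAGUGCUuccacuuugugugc
mmu-miR-294-3p: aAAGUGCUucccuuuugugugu
mmu-miR-295-3p: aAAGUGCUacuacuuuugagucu
mmu-miR-302d-3p: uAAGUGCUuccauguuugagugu
The members of the miR-290 cluster (3 of them) and of the miR-302 cluster shown here thus share the seed AAGUGCU and differ beyond it. Another member of the miR-302 cluster, mmu-miR-302b-3p, has the same seed and is not shown.

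On the message strand of 1 annotated 3′ UTR per gene, 3 letter strings were searched: AGCACTTA, an 8mer, and the 7mers AGCACTT and GCACTTA, with a 7mer inside an 8mer counted once. Sites were present in 8 of 35 genes (22.9%), against 2168 of 11763 protein-coding genes tested (18.4%). For 8mers the counts were 3 of 35 (8.57%) and 370 of 11763 (3.15%). The median 3′ UTR length was 1346 nt for the 35 genes and 937 nt for the 11763. Such a match describes the letters of the annotated UTR and was not tested as a binding site. The sites are shown with 8 bases on each side and the match in capitals, for each gene with a site except Dcp2.
Btg1: ttttacctAGCACTTAaaatgtat
Cnot6l: attatcaaAGCACTTAaatttgct
Dcp1b: caatccctAGCACTTAaaaaaaga
Tob2: gggaggttAGCACTTtttctaat
Pan3: agactccaAGCACTTgcaactga
Zfp36l2: cccctccgAGCACTTggactcga
Lsm14b: ctctggctGCACTTAagtgttct
On GRCm38 the 3 8mers lie at chr10:96619145-96619152 (plus strand) in Btg1, chr5:96076658-96076665 (minus strand) in Cnot6l and chr6:119221498-119221505 (plus strand) in Dcp1b. The 7mers lie at chr15:81850137-81850143 (minus) in Tob2, chr5:147547053-147547059 (plus) in Pan3, chr17:84185654-84185660 (minus) in Zfp36l2 and chr2:180035022-180035028 (plus) in Lsm14b. Dcp2 had 5 matches to AGCACTT in a 3′ UTR of 7240 nt.

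Libraries held 1151649 to 4984833 counts, with the monosome libraries the smallest. Reads of Dgcr8 itself were on average lower in KO cells in each fraction without being lost. The log2 changes from monosomes to high polysomes were -0.56, -0.45 and -1.01 (limma, adjusted p = 0.0185, 0.0223 and 0.000276). Of all genes 19.9%, 26.2% and 31.6% passed as lower in the same order. In low polysomes the genotypes overlapped, with 58.6 CPM of Dgcr8 in KO library 2 and 51.8 CPM in WT library 1. The deleted part was not located here, and reads at the 3′ end check a deletion elsewhere in the gene only in part. The 6 ESC markers summed to 1713 to 2727 CPM in WT and 1755 to 2247 CPM in KO libraries, with Pou5f1 the lowest of them at 17.9 to 76.6 CPM. The 5 fibroblast (feeder) markers summed to 3.92 to 7.87 CPM in WT and 0.26 to 1.96 CPM in the KO libraries other than low polysome library 1, where they reached 18.8 CPM. The 4 primitive endoderm markers summed to at most 5.61 CPM. Leaving out that KO gradient gave 16 members changed in low polysomes in place of 17, but not the same ones: Cnot7, Patl1, Lsm14a and Smg5 were lost and Dcp1a, Edc3 and Edc4 gained. The part of the fibroblast reads in any result was not tested.

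The summed reads of the 35 genes overlapped between the genotypes in each fraction. Levels are given as CPM, the counts of a gene scaled to the same total over the genes tested in each library, with TMM factors that correct for composition. The marker values above were instead scaled to the total of all genes in each library, without TMM factors. The 35 genes summed to 2270 to 2318 CPM in WT and 2262 to 2470 CPM in KO monosomes, to 2181 to 2423 and 2209 to 2397 CPM in low polysomes, and to 2313 to 2420 and 2325 to 2490 CPM in high polysomes. Averaged over the 9 WT libraries, Ddx6 had the highest level at 204 CPM, followed by Cnot1 (187 CPM), Xrn2 (174 CPM), Dcp2, Cnot3 and Lsm14a (122 to 125 CPM). The order differed between fractions: in WT low polysomes Cnot1 was above Ddx6 (204 ± 10.7 against 195 ± 8.02 CPM, n = 3), and in WT monosomes Cnot1 (138 ± 6.51 CPM) was below Xrn2 (161 ± 13.1 CPM) and Cnot3 (149 ± 14.9 CPM). Dcp1b was lowest with 3.31 CPM and as few as 3 reads in a library, and Zfp36, Zfp36l2 and Dcp1a stood at 9.65 to 12.9 CPM. Reads at 3′ ends do not grow with transcript length, but the order of genes also depends on how well each 3′ end was captured. Reads of Cnot3 are uncertain, since 27.3% of the 50-base stretches in the last 500 bases of its transcript also occur in the pseudogene Gm9207, and reads that align to both are dropped. The other 34 genes shared no such stretch with an annotated transcript of another gene.

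The first comparison was KO against WT within each fraction, which includes differences in the amount of each message as well as in its ribosome load. In bulk libraries, fewer cells with a message and less of it per cell cannot be told apart. A gene passed at an adjusted p under 0.05 in limma, and fold changes are relative to the TMM scale. In monosomes 10 of 35 genes passed (28.6%), 6 higher and 4 lower, against 37.3% of all genes tested, 17.5% higher and 19.9% lower. In low polysomes 17 passed (48.6%), 9 higher and 8 lower, against 52.3% of all genes, 26.1% higher and 26.2% lower. In high polysomes 18 passed (51.4%), 9 higher and 9 lower, against 60.7%, of which 29.1% were higher and 31.6% lower. These shares are near or under those of all genes, and so are the sizes: the median absolute log2 change of the 35 genes from monosomes to high polysomes was 0.26, 0.39 and 0.38, and that of all genes 0.47, 0.55 and 0.74.

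Changes over 2-fold were few. In low polysomes 3 of 35 genes passed with more than a 2-fold change, against 25% of all genes, and in high polysomes 1 did, against 33.1%. The 10 genes that passed in monosomes changed by less than 2-fold, with 18.1% of all genes past that size. At least 1 fraction gave a call for 24 of 35 genes (68.6%, against 77.2% of all genes). Cnot6, Tob1, Tob2 and Zfp36l1 were higher in all 3 fractions (11.4%, against 11.7% of all genes). Cnot1 and Lsm14a were lower in all 3 (5.71%, against 10.7%). Cnot8 and Upf1 passed in opposite directions in different fractions (5.71%, against 3.28%). The 11 genes that passed in no fraction were Cnot2, Cnot4, Cnot11, Pan2, Dcp1a, Dcp1b, Dcp2, Ddx6, Xrn1, Smg6 and Zfp36l2. By the libraries alone, the KO and WT values did not overlap for 12 of 35 genes in monosomes (7 above, 5 below), against 49.2% of all genes (23.5% above, 25.7% below). For low polysomes this held for 19 genes (10 above, 9 below), against 57% (28.6% above, 28.4% below), and for high polysomes for 17 genes (9 above, 8 below), against 63.6% (29.9% above, 33.7% below).

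**Figure D1:**
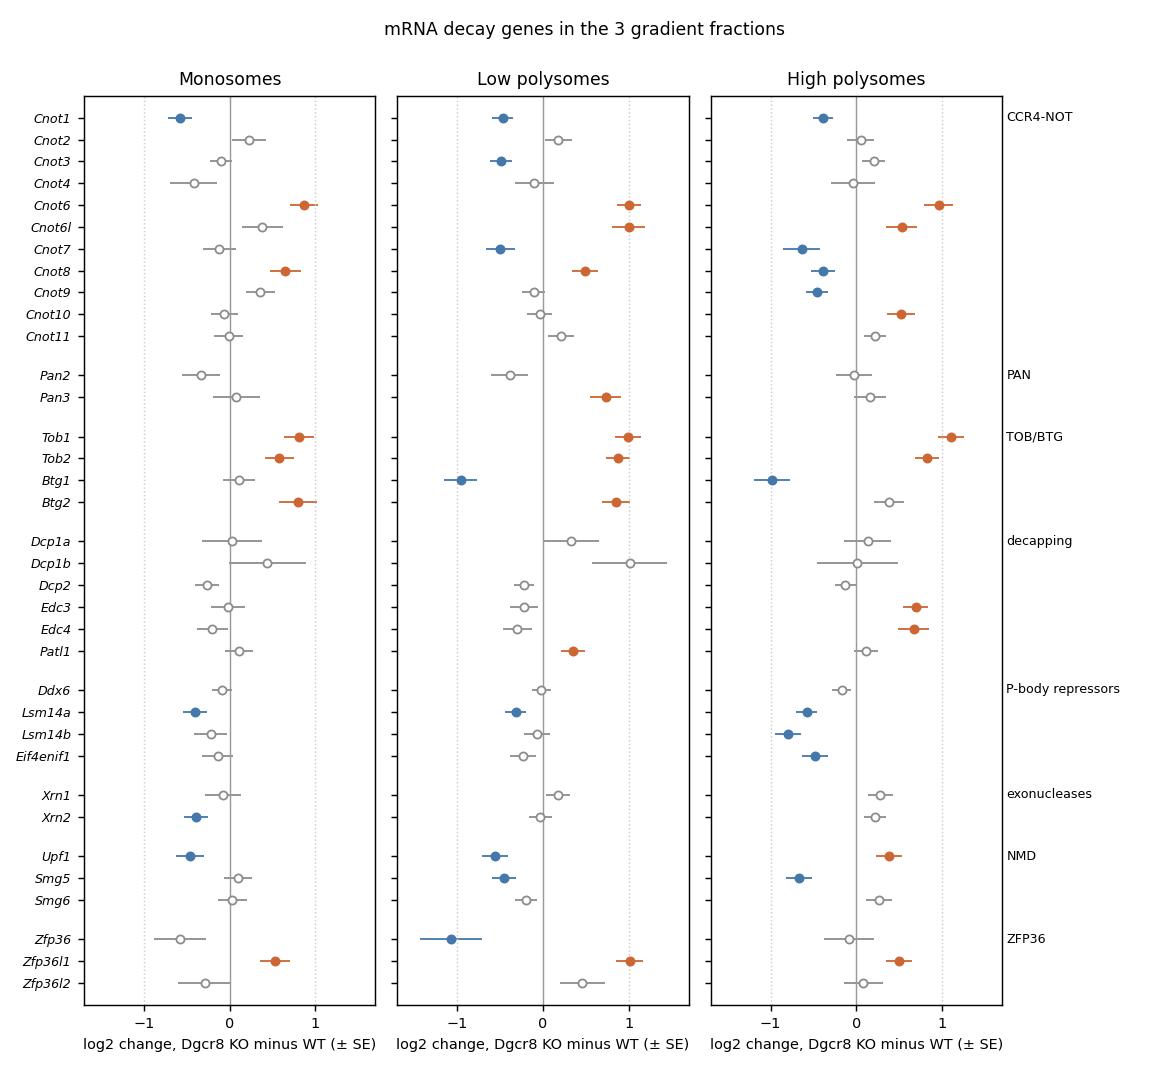
Change of each of the 35 genes in Dgcr8 KO against WT cells (x axis, log2, limma estimate ± SE), in monosomes (left), low polysomes (middle) and high polysomes (right), with genes grouped by role. Filled orange points passed as higher and filled blue points as lower at an adjusted p under 0.05, open points did not pass, and dotted lines mark a 2-fold change. Tob1 and Tob2 lie to the right in all 3 panels, while Btg1 lies to the left in both polysome panels.

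The CCR4-NOT subunits passed in both directions. Of 11 subunits, 3 passed in monosomes (27.3%, against 37.3% of all genes), 2 higher and 1 lower. Low polysomes gave 6 (54.5%, against 52.3%), 3 in each direction, and high polysomes 7 (63.6%, against 60.7%), 3 higher and 4 lower. These shares are near or under those of all genes. Cnot1 (chr8:95719451-95807464, minus strand) codes for the large scaffold on which the complex is built. In monosomes, the 3 WT libraries had 145, 132 and 138 CPM of Cnot1 and the 3 KO libraries 105, 90.9 and 83 CPM. In low polysomes they were 216, 198 and 196 CPM in WT and 148, 133 and 160 CPM in KO cells, and in high polysomes 217, 251 and 193 CPM against 157, 159 and 184 CPM. The KO libraries lay under all WT libraries in each fraction. Cnot1 fell by 0.58 on the log2 scale in monosomes (SE 0.14, adjusted p = 0.000839), by 0.47 in low polysomes (SE 0.12, adjusted p = 0.00109) and by 0.39 in high polysomes (SE 0.12, adjusted p = 0.00446). The high polysome call was lost without WT gradient 2 (adjusted p = 0.103).

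CNOT6 and CNOT6L are alternative catalytic subunits of the complex that belong to one enzyme family. Cnot6 (chr11:49671503-49712723, minus strand) had 84.2 ± 21.8 CPM in WT monosomes and 153 ± 21.6 CPM in KO monosomes (mean ± SD, n = 3). It rose to 123 ± 4.56 CPM in KO low polysomes from 61.6 ± 4.48 CPM, and to 60.4 ± 3.51 CPM in KO high polysomes from 31.2 ± 6.46 CPM. Its log2 changes were 0.87, 1.0 and 0.96, with SEs of 0.16, 0.14 and 0.17, and the low polysome value lay just inside 2-fold. Cnot6l (chr5:96070333-96164171, minus strand), which carries the 8mer shown above, had 22.9, 24.5 and 25.3 CPM in WT and 38.1, 51.6 and 58.6 CPM in KO low polysomes. In high polysomes it had 25.7, 28.5 and 39.8 CPM in WT and 56.5, 37 and 44.4 CPM in KO cells, and in monosomes 24.1, 34.2 and 25.6 CPM against 35, 43.5 and 31.7 CPM. The groups were apart in low polysomes and overlapped in the other 2 fractions. Cnot6l was 2.01-fold higher in low polysomes (SE of the log2 change 0.19, adjusted p = 1.64e-05), with log2 changes of 0.53 in high polysomes (SE 0.18, adjusted p = 0.0113) and 0.38 in monosomes (SE 0.24, adjusted p = 0.215). Its high polysome call was lost without WT gradient 1 or KO gradient 1 (adjusted p up to 0.0893) and on total counts (0.31, adjusted p = 0.141).

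CNOT7 and CNOT8 are the alternative subunits of the other catalytic family. Cnot8 (chr11:58104153-58118594, plus strand) had 32.8, 45.8 and 36.2 CPM in WT and 66.2, 57.9 and 57.6 CPM in KO monosomes. In low polysomes it had 35.3, 34.3 and 35.8 CPM against 46.1, 48.7 and 53.6 CPM, and in high polysomes the order turned, with 85.8, 76 and 66.2 CPM in WT and 62.5, 47.8 and 63 CPM in KO cells. The KO libraries were thus above all WT libraries in monosomes and low polysomes and below all of them in high polysomes. Its log2 changes were 0.65 (SE 0.18, adjusted p = 0.00446), 0.49 (SE 0.15, adjusted p = 0.00612) and -0.39 (SE 0.14, adjusted p = 0.0137) in that order. The monosome call was lost without WT gradient 1 (adjusted p = 0.052), and the high polysome call without WT gradient 1, WT gradient 2 or KO gradient 2 (adjusted p up to 0.113). Cnot7 passed as lower, by 0.50 in low polysomes (log2 -0.50, adjusted p = 0.0121) and 0.64 in high polysomes (log2 -0.64, adjusted p = 0.0115), each call lost without 1 of 2 gradients (adjusted p up to 0.168 and 0.0807), and its monosome value was -0.12. In low polysomes the catalytic subunits Cnot7 and Cnot8 therefore passed in opposite directions.

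Cnot9 (chr1:74506058-74530842, plus strand) codes for a subunit that contacts the GW182 proteins of the miRNA silencing complex. Its level was 54.9, 47.1 and 54.8 CPM in WT and 85.6, 57.1 and 64.2 CPM in KO monosomes. High polysome libraries held 114, 101 and 134 CPM in WT and 82, 83.3 and 87.6 CPM in KO high polysomes. In low polysomes it was 99.4, 100 and 91.8 CPM against 82.7, 90.4 and 96.9 CPM. The KO libraries were all above WT in monosomes, all below in high polysomes, and overlapped WT between them. The high polysome difference passed, with a log2 change of -0.46 (SE 0.13, adjusted p = 0.00278), against 0.36 in monosomes (adjusted p = 0.0902) and -0.11 in low polysomes (adjusted p = 0.498). The monosome value passed on total counts (0.47, adjusted p = 0.0252), in a fit of the compared libraries alone (0.41, adjusted p = 0.046) and without KO gradient 2 (0.49, adjusted p = 0.0363), and Cnot9 would then be called in opposite directions. Of the remaining subunits, Cnot3 passed as lower in low polysomes (log2 -0.49) and Cnot10 as higher in high polysomes (log2 0.52). The Cnot10 call was lost on total counts (0.30, adjusted p = 0.106). Cnot2, Cnot4 and Cnot11 had log2 changes between -0.42 and 0.23 and did not pass. Of the PAN deadenylase, the adaptor gene Pan3 passed as higher in low polysomes (log2 0.73, SE 0.18, adjusted p = 0.000597), while the catalytic Pan2 did not pass, with -0.33, -0.39 and -0.03 over the 3 fractions, although its low polysome value passed without WT gradient 1 (-0.62, adjusted p = 0.0194).

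The TOB and BTG adaptors, small antiproliferative proteins that bind CNOT7 or CNOT8, are 4 genes. In low polysomes all 4 passed, 3 higher and 1 lower, where 52.3% of all genes did. In monosomes 3 passed, all higher, against 37.3% of all genes, and in high polysomes 3 passed, 2 higher and 1 lower, against 60.7%. Summed over the 4 genes, reads were 227 to 246 CPM in WT and 323 to 354 CPM in KO monosomes, 189 to 257 and 264 to 337 CPM in low polysomes, and 161 to 217 and 249 to 284 CPM in high polysomes. Tob1 (chr11:94211454-94215495, plus strand) had 46.9, 49.7 and 64.5 CPM in WT and 87.8, 98.2 and 91.3 CPM in KO monosomes. In low polysomes it had 39.5, 34.9 and 45.2 CPM against 72.8, 70.2 and 95.1 CPM, and in high polysomes 44.9, 36.4 and 46.2 CPM against 94.2, 95.1 and 84.1 CPM. Every KO library was above every WT library of the same fraction. The high polysome change was 2.14-fold (log2 1.10, SE 0.15, adjusted p = 3.19e-08), with log2 0.81 in monosomes (SE 0.17, adjusted p = 0.00015) and 0.99 in low polysomes (SE 0.15, adjusted p = 3.31e-07). No fit without 1 gradient ended a Tob1 call, and the high polysome value ranged from 1.02 to 1.17. Tob2, with a 7mer site, also passed in each fraction, with log2 changes of 0.58, 0.87 and 0.82, of which the monosome call was lost without WT gradient 1 (adjusted p = 0.0962). Btg2 passed in monosomes (log2 0.80) and low polysomes (log2 0.85) but not in high polysomes (log2 0.38, adjusted p = 0.0636, or 0.0454 with the replicate number as a block). Without WT gradient 1 the high polysome value of Btg2 was 0.62 and passed (adjusted p = 0.00648).

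Btg1 (chr10:96617006-96622809, plus strand), the remaining adaptor and the carrier of an 8mer site, went the other way. In monosomes its reads were 103, 76.1 and 87.5 CPM in WT and 90.1, 85.4 and 112 CPM in KO cells. In low polysomes they were 67.7, 67 and 119 CPM against 28.9, 48.4 and 52 CPM, and in high polysomes 61.2, 49.4 and 53.2 CPM against 24.5, 26.4 and 31 CPM. The groups overlapped in monosomes, and the KO libraries lay under all WT libraries in both polysome fractions. The log2 change was 0.11 in monosomes (SE 0.19, adjusted p = 0.694), -0.96 in low polysomes (SE 0.19, adjusted p = 3.46e-05) and -0.98 in high polysomes (SE 0.21, adjusted p = 9.21e-05). Leaving out 1 gradient kept both polysome calls, with values from -1.13 to -0.68 in low and from -1.09 to -0.90 in high polysomes.

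**Figure D2:**
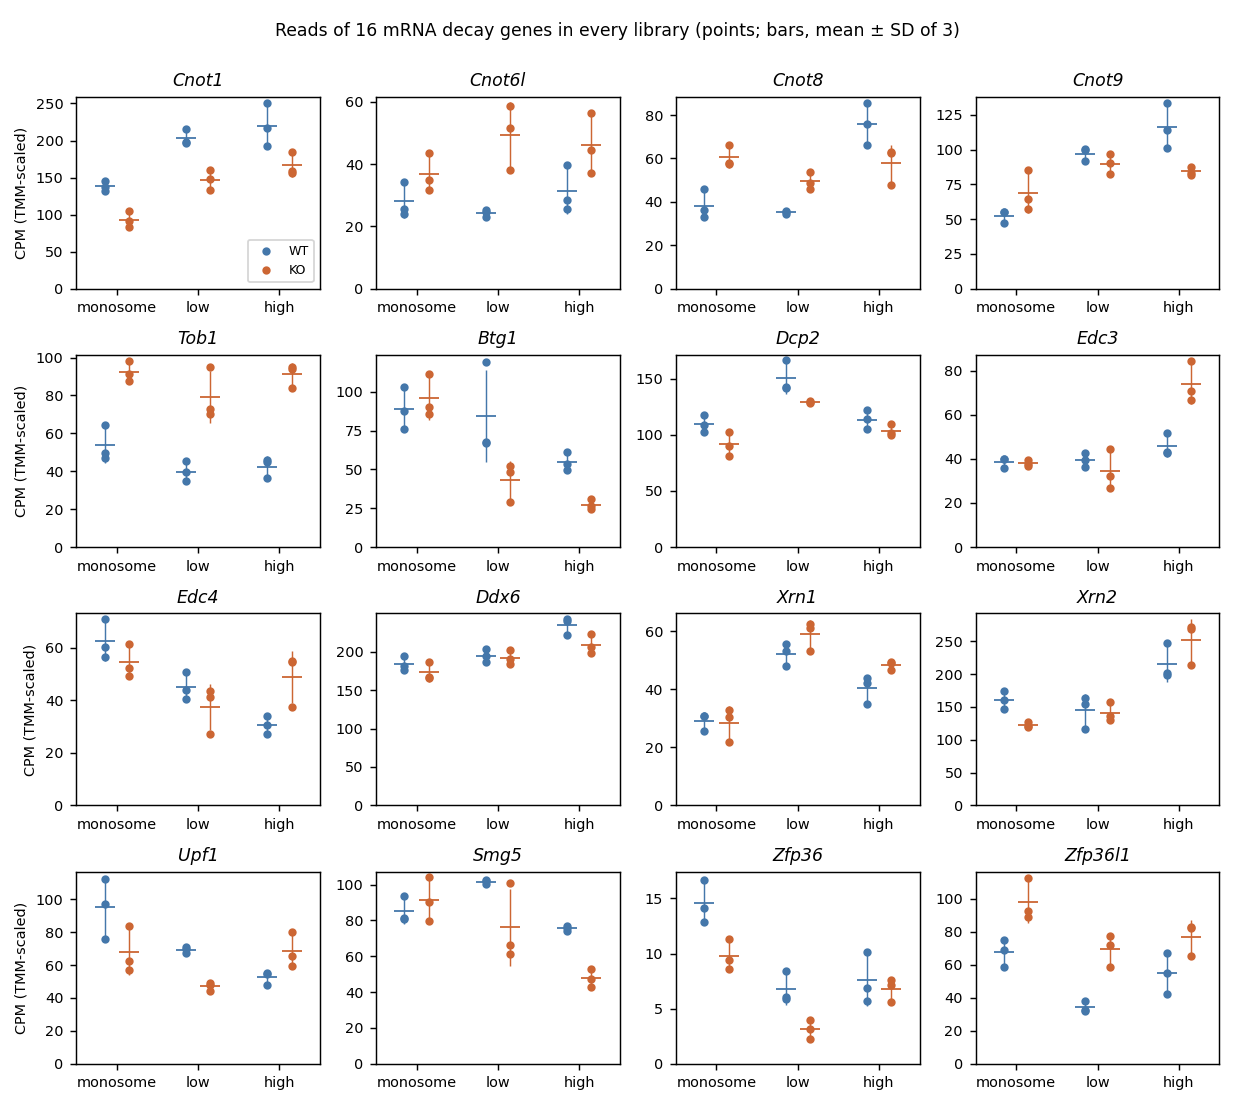
Reads of 16 of the genes in every library (y axis, TMM-scaled CPM from 0; x axis, fraction), WT in blue and Dgcr8 KO in orange, with each point 1 library and bars the mean ± SD of 3. Tob1 is higher in KO cells in all 3 fractions, Btg1 separates in the polysome fractions, and the 2 genotypes overlap for Ddx6 in each fraction.

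Of the 6 decapping genes, 2 passed in high polysomes (33.3%, against 60.7% of all genes), Edc3 and Edc4, both higher. In low polysomes 1 passed, Patl1 (16.7%, against 52.3%). Dcp2 (chromosome 18, plus strand), which codes for the enzyme that cleaves the cap, had 103, 108 and 118 CPM in WT and 90.1, 103 and 81.5 CPM in KO monosomes, 142, 142 and 167 CPM against 129, 130 and 129 CPM in low polysomes, and 105, 122 and 114 CPM against 99.8, 102 and 109 CPM in high polysomes. The groups were apart in low polysomes and overlapped in the other 2 fractions. Its log2 changes were -0.26, -0.22 and -0.13, with SEs of 0.12 to 0.14 and adjusted p = 0.133, 0.118 and 0.356. On total counts, without TMM factors, the high polysome value was -0.35 and passed (adjusted p = 0.0116). Patl1 passed as higher in low polysomes (log2 0.35, adjusted p = 0.0348), a call lost without any 1 of 4 gradients (adjusted p up to 0.168) and on total counts (0.0506) or with DESeq2 size factors (0.053). Dcp1a did not pass, with log2 changes of 0.03 to 0.33, but without KO gradient 1 its low polysome value was 0.82 and passed (adjusted p = 0.0089). Dcp1b, with an 8mer site, had 2.12, 2.51 and 1.51 CPM in WT and 3.69, 4.17 and 4.73 CPM in KO low polysomes. A log2 change of 1.01 did not pass (SE 0.44, adjusted p = 0.053).

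Edc3 (chr9:57708540-57752499, plus strand) and Edc4 (chr8:105880881-105894908, plus strand) code for scaffolds that enhance decapping. In high polysomes Edc3 had 42.5, 43.2 and 51.9 CPM in WT and 71.1, 66.8 and 84.3 CPM in KO cells. Edc4 had 30.8, 34.2 and 27.1 CPM against 54.9, 37.6 and 54.5 CPM. The KO libraries were above WT for both genes, with log2 changes of 0.69 (SE 0.15, adjusted p = 0.000109) and 0.67 (SE 0.18, adjusted p = 0.00142). In monosomes Edc3 had 40.2, 36.1 and 39.8 CPM against 36.7, 39.6 and 37.6 CPM, and Edc4 had 60.3, 71 and 56.6 CPM against 49.5, 52.4 and 61.5 CPM. In low polysomes Edc3 had 36.3, 42.7 and 39.4 CPM against 44.6, 26.9 and 32.3 CPM, and Edc4 had 50.8, 40.5 and 44 CPM against 43.6, 41.3 and 27.3 CPM. The groups overlapped in both of these fractions and neither gene passed there, with log2 changes of -0.02 and -0.22 for Edc3 and -0.20 and -0.30 for Edc4. The low polysome values passed without KO gradient 1 (Edc3 -0.41, adjusted p = 0.0459, and Edc4 -0.43, adjusted p = 0.0499).

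The P-body repressors passed as lower wherever they passed. Of these 4 genes, 3 passed in high polysomes, where 60.7% of all genes passed and 31.6% as lower, and 1 passed in each of the other fractions. Their summed reads were 477 to 529 CPM in WT and 364 to 398 CPM in KO high polysomes. Ddx6 (chr9:44604892-44640731, plus strand) codes for the helicase that links CCR4-NOT to decapping and to repression of translation. Its reads in WT monosomes were 176, 194 and 181 CPM and in KO monosomes 166, 187 and 167 CPM. In low polysomes they were 187, 194 and 203 CPM against 184, 190 and 202 CPM, and in high polysomes 222, 242 and 240 CPM against 223, 207 and 199 CPM. The genotypes overlapped in each fraction. The log2 changes of Ddx6 were -0.09, -0.02 and -0.17 (SE 0.11 to 0.12, adjusted p = 0.599, 0.892 and 0.183). On total counts the high polysome value was -0.39 and passed (adjusted p = 0.00216).

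Lsm14a and Lsm14b code for RNA-binding partners of DDX6, and Eif4enif1 for the protein 4E-T, which binds the cap-binding protein eIF4E. In high polysomes Lsm14a was 138 ± 14.5 CPM in WT and 91.9 ± 2.46 CPM in KO cells, Lsm14b 63.7 ± 2.31 and 36.4 ± 4.48 CPM, and Eif4enif1 61.5 ± 7.51 and 45.2 ± 10.1 CPM (n = 3). All KO libraries lay under all WT libraries for the 3 genes. Their log2 changes there were -0.58 (adjusted p = 7.72e-05), -0.80 (adjusted p = 1.36e-05) and -0.48 (adjusted p = 0.00555), the last lost without WT gradient 2 or KO gradient 3 (adjusted p up to 0.153). Lsm14a also passed in monosomes (log2 -0.40) and low polysomes (log2 -0.32), calls lost without 1 of 3 and 1 of 2 gradients (adjusted p up to 0.0921 and 0.131). The monosome call of Lsm14a was also lost on total counts (adjusted p = 0.0957).

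Of the 5′ to 3′ exonucleases, XRN1 acts in the cytoplasm and XRN2 in the nucleus. Xrn1 (chr9:95954760-96057803, plus strand) had 30.8, 31 and 25.6 CPM in WT and 30.6, 33 and 21.9 CPM in KO monosomes, 53.2, 48 and 55.7 CPM against 62.7, 53.2 and 61.2 CPM in low polysomes, and 42.1, 44 and 35 CPM against 46.6, 49.1 and 49.6 CPM in high polysomes. The groups were apart in high polysomes and overlapped in the other 2 fractions. Its log2 changes of -0.08, 0.18 and 0.28 did not pass (SE 0.14 to 0.21, adjusted p = 0.799, 0.293 and 0.107). Xrn2 (chr2:147012996-147078000, plus strand) had 147, 174 and 161 CPM in WT and 120, 127 and 121 CPM in KO monosomes, 117, 164 and 154 CPM against 157, 137 and 130 CPM in low polysomes, and 199, 248 and 202 CPM against 272, 214 and 269 CPM in high polysomes. The KO libraries lay below WT in monosomes and overlapped WT in both polysome fractions. The monosome change of Xrn2 was -0.39 (SE 0.14, adjusted p = 0.0295). That call was lost on total counts (adjusted p = 0.128) and without any 1 of 4 gradients (adjusted p up to 0.218). In low and high polysomes its values were -0.03 and 0.22 and did not pass, although the high polysome value of Xrn2 passed without WT gradient 2 or KO gradient 2 (0.35 and 0.33, adjusted p = 0.0409 and 0.0279).

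UPF1 is the helicase at the centre of NMD, and SMG5 and SMG6 act after its phosphorylation. Upf1 (chr8:70331525-70353278, minus strand) had 97.1, 76.1 and 112 CPM in WT and 57.3, 83.9 and 62.7 CPM in KO monosomes, 69.5, 67.5 and 71 CPM against 44.3, 49.3 and 47.8 CPM in low polysomes, and 47.6, 54.4 and 55.4 CPM against 65.5, 59.6 and 80.4 CPM in high polysomes. The KO libraries were below WT in low polysomes, above WT in high polysomes and overlapped WT in monosomes. Its log2 changes were -0.46 (SE 0.16, adjusted p = 0.0206), -0.56 (SE 0.15, adjusted p = 0.00182) and 0.38 (SE 0.15, adjusted p = 0.0273) from monosomes to high polysomes. The low polysome call held without each gradient, while the monosome call was lost without any 1 of 4 gradients (adjusted p up to 0.149) and the high polysome call without WT gradient 1 or KO gradient 3 (adjusted p up to 0.215). On total counts the monosome and high polysome calls were both lost (adjusted p = 0.0767 and 0.364).

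Smg5 (chr3:88336260-88362338, plus strand) had 93.8, 80.7 and 81.3 CPM in WT and 79.5, 104 and 90.1 CPM in KO monosomes, 101, 103 and 102 CPM against 61.2, 101 and 66.2 CPM in low polysomes, and 76.8, 74.2 and 75.8 CPM against 42.7, 53.1 and 47.1 CPM in high polysomes. The high polysome groups were apart, while in low polysomes KO gradient 2 reached the WT values. The log2 changes were 0.10 (adjusted p = 0.674), -0.46 (SE 0.14, adjusted p = 0.00588) and -0.67 (SE 0.15, adjusted p = 0.00022). The low polysome call was lost without KO gradient 1 or KO gradient 3 (adjusted p up to 0.0587). Smg6 did not pass, with log2 changes of 0.03, -0.20 and 0.26, the last of which passed without KO gradient 2 (0.36, adjusted p = 0.0483).

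The ZFP36 proteins bind AU-rich elements and call in CCR4-NOT. Zfp36l1 (chr12:80107754-80113013, minus strand) had 69, 74.9 and 58.4 CPM in WT and 88.9, 112 and 92.4 CPM in KO monosomes, 32.8, 31.8 and 38.2 CPM against 77.5, 58.3 and 71.7 CPM in low polysomes, and 42.5, 55.1 and 66.9 CPM against 65.5, 82.9 and 82.3 CPM in high polysomes. The KO libraries were above WT in monosomes and low polysomes, and 1 KO library overlapped WT in high polysomes. Its low polysome change was 2.01-fold (log2 1.01, SE 0.16, adjusted p = 1.6e-06), with log2 0.53 in monosomes (SE 0.17, adjusted p = 0.012) and 0.50 in high polysomes (SE 0.15, adjusted p = 0.00509). The monosome call was lost without WT gradient 3 or KO gradient 2 (adjusted p up to 0.0639), and the high polysome call without WT gradient 1 (adjusted p = 0.0927) and on total counts (0.117).

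Zfp36 (chr7:28376784-28380253, minus strand), which codes for tristetraprolin, was among the least abundant of the 35 genes, with as few as 7 reads in a library. It had 8.46, 5.86 and 6.02 CPM in WT and 4, 2.24 and 3.15 CPM in KO low polysomes, 16.7, 12.9 and 14.1 CPM against 9.45, 11.3 and 8.62 CPM in monosomes, and 10.1, 6.85 and 5.73 CPM against 5.62, 7.15 and 7.58 CPM in high polysomes. The KO libraries were below WT in monosomes and low polysomes and overlapped WT in high polysomes. The low polysome change was 2.10-fold lower (log2 -1.07, SE 0.36, adjusted p = 0.011) and was lost without KO gradient 2 (adjusted p = 0.056). In monosomes (log2 -0.58, SE 0.30, adjusted p = 0.123) and high polysomes (log2 -0.09, SE 0.29, adjusted p = 0.809) it did not pass. Zfp36l2 did not pass, with log2 changes between -0.29 and 0.46, although its low polysome value passed without KO gradient 2 (0.66, adjusted p = 0.0428).

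The genes with a seed site did not share a direction. The 8 genes with a site had median log2 changes of 0.09, 0.59 and 0.04 in monosomes, low and high polysomes, and the 27 without had -0.06, -0.10 and 0.13. Of the 3 genes with an 8mer, Cnot6l passed as higher in low and high polysomes, Btg1 as lower in both, and Dcp1b did not pass. Dcp2, with 5 sites, did not pass in any fraction. Of the 4 genes with a single 7mer, Tob2 and Pan3 passed as higher in at least 1 fraction, Lsm14b as lower in high polysomes, and Zfp36l2 did not pass. Tob1, Cnot6 and Zfp36l1, which were higher in each fraction, had no match in the 3′ UTR searched.

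The second comparison was the translation level, the ratio of high polysome to monosome reads, within each genotype. Each library was scaled to the same total, and the amounts of RNA in the fractions were not measured. Toward high polysomes or monosomes is therefore relative to the typical gene. The median log2 ratio of all genes was -0.01 in WT and -0.07 in KO cells. In WT cells 17 of 35 genes passed, 7 toward high polysomes and 10 toward monosomes, against 54% of all genes, 26% and 28% in the same order. In KO cells 16 passed, 7 and 9, against 67.7%, 32.2% and 35.5% by direction. Past 2-fold were 5 genes in WT and 6 in KO cells, against 30.1% and 43% of all genes. In WT cells the CCR4-NOT subunits, the largest group, spread widest, from a log2 ratio of -1.42 (SE 0.18) for Cnot6 to 1.15 (SE 0.16) for Cnot9. Of the 11 subunits 9 passed (81.8%, against 54% of all genes). Toward high polysomes were 4 (Cnot9, Cnot8, Cnot11 and Cnot1) and toward monosomes 5 (Cnot6, Cnot7, Cnot4, Cnot10 and Cnot3). Past 2-fold were 3 of the 11, against 30.1% of all genes. The Cnot4 call was lost without WT gradient 1 (adjusted p = 0.0972 in limma). Cnot6 stayed toward monosomes in KO cells (log2 -1.33, SE 0.14) and Cnot11 toward high polysomes (log2 0.78 in WT and 1.01 in KO cells). Ddx6 lay slightly toward high polysomes in both, with 0.35 in WT (adjusted p = 0.0102) and 0.27 in KO cells (adjusted p = 0.0315). The WT call of Ddx6 was lost without WT gradient 3 (adjusted p = 0.0705 in limma). Its KO call was lost without KO gradient 1 or KO gradient 3 (adjusted p up to 0.203). It was also lost on total counts (0.02, adjusted p = 0.879) and with a filter of 10 CPM (0.16, adjusted p = 0.194).

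The third comparison, and the one the study used for translation, was the change of that ratio between the genotypes, which does not depend on the amount of a message. Of 35 genes 8 passed (22.9%), 4 higher and 4 lower in KO cells, against 28.2% of all genes tested, 13% higher and 15.2% lower. Past 2-fold were 2 of the 35, both lower, against 15.1% of all genes. The median absolute log2 change was 0.34, against 0.58 over all genes. The split of directions depends on the scaling. When libraries were scaled by their totals alone, 9 genes passed, all of them lower, and the median of all genes moved by -0.328 (log2). The directions given here are therefore relative to the TMM scale. DESeq2 size factors moved that median by 0.008 and gave 5 higher and 4 lower.

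Btg1 had the largest change. Its log2 translation level was -0.75, -0.62 and -0.71 in the 3 WT gradients and -1.85, -1.67 and -1.82 in the 3 KO gradients. The gradients of each genotype lay within 0.2 of each other and far from those of the other genotype. The change was -1.09 (SE 0.28, adjusted p = 0.00308), or 2.13-fold lower, and it ranged from -1.15 to -1.05 without 1 gradient. Cnot8 followed, with 1.37, 0.72 and 0.86 in WT and -0.08, -0.27 and 0.13 in KO gradients. Its message thus lay toward high polysomes in WT cells and near the typical gene in KO cells. The change was -1.04 (SE 0.23, adjusted p = 0.000549), or 2.05-fold lower.

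Cnot9 went from 1.05, 1.09 and 1.28 in WT to -0.06, 0.54 and 0.44 in KO gradients, a change of -0.82 (SE 0.21, adjusted p = 0.00331). Smg5 went from -0.28, -0.12 and -0.10 to -0.89, -0.96 and -0.93, a change of -0.77 (SE 0.22, adjusted p = 0.0074). For both genes the KO gradients lay under all WT gradients. The 4 lower genes, Btg1, Cnot8, Cnot9 and Smg5, passed without each gradient in turn and on total counts.

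On the higher side were Edc4, Upf1, Edc3 and Xrn2. Edc4 had -0.95, -1.04 and -1.04 in WT and 0.15, -0.47 and -0.17 in KO gradients, a change of 0.87 (SE 0.26, adjusted p = 0.00885). Upf1 had -1.02, -0.48 and -1.01 against 0.19, -0.49 and 0.36, a change of 0.84 (SE 0.22, adjusted p = 0.00318). Both messages lay toward monosomes in WT cells and near the typical gene in KO cells. For Upf1, KO gradient 2 fell within the WT range. Edc3 had 0.08, 0.25 and 0.38 against 0.94, 0.74 and 1.15, a change of 0.71 (SE 0.25, adjusted p = 0.0255). Xrn2 had 0.43, 0.51 and 0.33 against 1.18, 0.75 and 1.15, a change of 0.61 (SE 0.19, adjusted p = 0.0141). Relative to the typical gene, these 2 messages lay toward high polysomes in both genotypes, further so in KO cells, with no overlap of gradients.

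Each of the higher calls was lost under some settings. Edc4 was lost without WT gradient 2 (adjusted p = 0.0524), Upf1 without KO gradient 3 (adjusted p = 0.0541), Edc3 without WT gradient 1, WT gradient 2 or KO gradient 3 (adjusted p up to 0.124), and Xrn2 without WT gradient 3 or KO gradient 3 (adjusted p up to 0.0741). Without KO gradient 3, 5 of 35 genes passed, 1 higher and 4 lower. On total counts the 4 values stayed above 0 (Edc4 0.54, Upf1 0.51, Edc3 0.38 and Xrn2 0.28) and did not pass (adjusted p = 0.108, 0.0711, 0.248 and 0.295), whereas Cnot7, Btg2, Lsm14a, Lsm14b and Eif4enif1 then passed as lower.

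**Figure D3:**
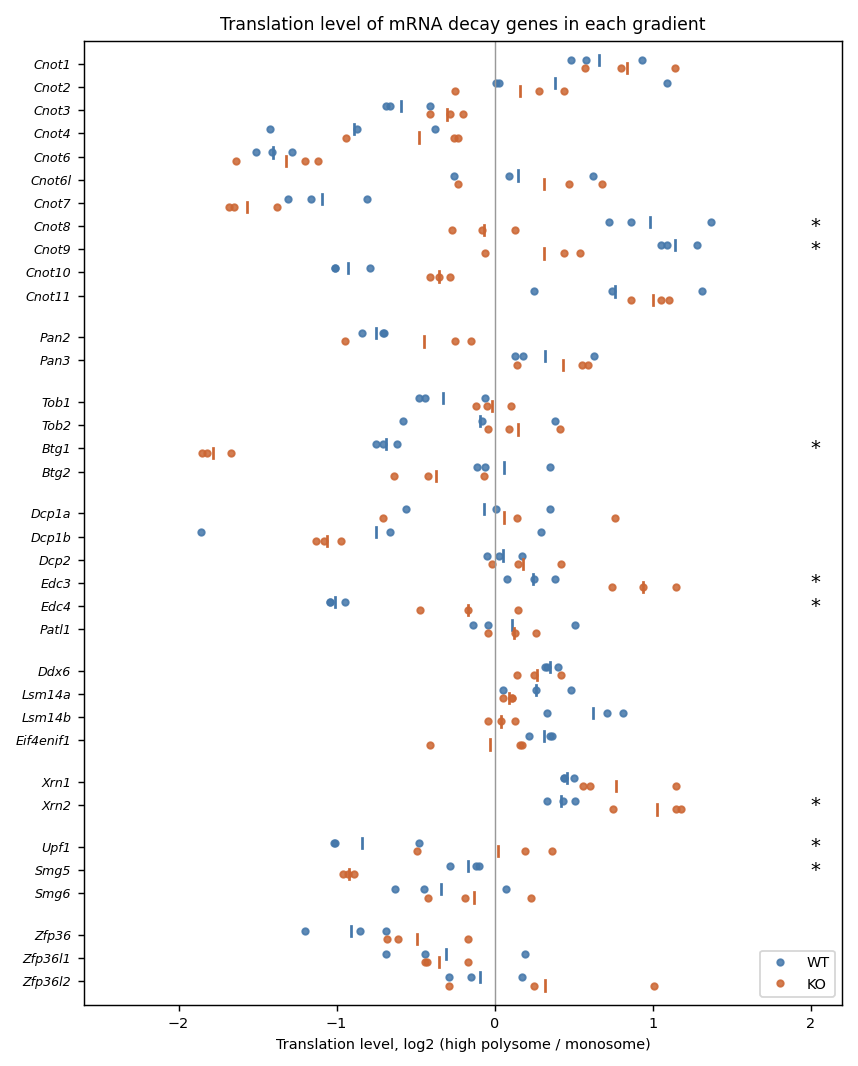
Translation level of the 35 genes in each gradient (x axis, log2 of high polysome to monosome CPM), WT in blue and Dgcr8 KO in orange. On this scale 0 marks an even ratio of scaled reads, not equal amounts of RNA. Each point is 1 gradient and the vertical tick the mean of 3. Asterisks mark the 8 genes whose change between genotypes passed. Btg1, Cnot8, Cnot9 and Smg5 move to the left in KO cells and Edc3, Edc4, Xrn2 and Upf1 to the right.

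Without regard to the test, the gradients of the genotypes did not overlap for 13 of 35 genes, against 41.7% of all genes. The remaining 27 genes did not pass, among them Ddx6, Cnot1, Dcp2 and Xrn1. Ddx6 had 0.33, 0.32 and 0.40 in WT and 0.42, 0.14 and 0.25 in KO gradients, a change of -0.08 (SE 0.16, adjusted p = 0.76). Cnot1 had 0.58, 0.93 and 0.48 against 0.57, 0.80 and 1.14 (change 0.19, SE 0.18, adjusted p = 0.475), and Dcp2 0.03, 0.17 and -0.05 against 0.15, -0.02 and 0.42 (change 0.13, SE 0.18, adjusted p = 0.648). The gradients of the genotypes overlapped for these 3 genes. Xrn1 had 0.44, 0.50 and 0.44 against 0.60, 0.56 and 1.15, without overlap but with a change of 0.35 that did not pass (SE 0.26, adjusted p = 0.327). Tob1 (0.29, SE 0.22), Zfp36l1 (-0.03, SE 0.23), Cnot6l (0.15, SE 0.30) and Zfp36 (0.49, SE 0.41), which changed within fractions, did not pass for the ratio (adjusted p = 0.366, 0.94, 0.754 and 0.407). Close to the threshold, Cnot10 (0.57, adjusted p = 0.0541) and Lsm14b (-0.58, adjusted p = 0.0703), passed when each gradient was fitted as a block, with adjusted p = 0.0133 and 0.0484 and 10 of 35 genes passed in all. Lsm14b also passed without WT gradient 2 (-0.77, adjusted p = 0.0479).

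The gradient steps placed the changes at different points. For the low polysome to monosome ratio 1 of 35 genes passed (2.86%), against 11.4% of all genes (3.9% higher, 7.49% lower, and 5.03% past 2-fold). It was Btg1, with a change of -1.07 (SE 0.27, adjusted p = 0.00514), or 2.09-fold, that was lost without WT gradient 3 (adjusted p = 0.0722). With each gradient as a block, Smg5 passed as well (log2 -0.53, adjusted p = 0.0366), giving 2 genes, and it also passed without KO gradient 2 (-0.67, adjusted p = 0.0209). For the high to low polysome ratio 6 passed (17.1%), 4 higher and 2 lower, against 17.8% of all genes (7.52% higher, 10.3% lower). All 6 changed by less than 2-fold, a size passed by 5.18% of all genes. Edc4 (0.96, adjusted p = 0.00493), Upf1 (0.94, adjusted p = 0.00153), Edc3 (0.91, adjusted p = 0.00284) and Cnot3 (0.69, adjusted p = 0.00578) were higher, and Cnot8 (-0.88, adjusted p = 0.00203) and Lsm14b (-0.73, adjusted p = 0.0141) were lower. Edc4 was lost there without KO gradient 3 (adjusted p = 0.102), and Lsm14b without 1 of 3 gradients (adjusted p up to 0.0807). Calls were gained for Cnot6l without KO gradient 1 (-0.79, adjusted p = 0.0276), and without KO gradient 2 for Zfp36l1 (-0.68, adjusted p = 0.0356) and Smg6 (0.61, adjusted p = 0.0379). On total counts 10 genes passed, 4 higher and 6 lower. For Btg1 the high to low ratio changed by -0.02 (adjusted p = 0.966), and for Cnot8 the low polysome to monosome ratio by -0.15 (adjusted p = 0.754). These ratios share libraries with the translation level.

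**Figure D4:**
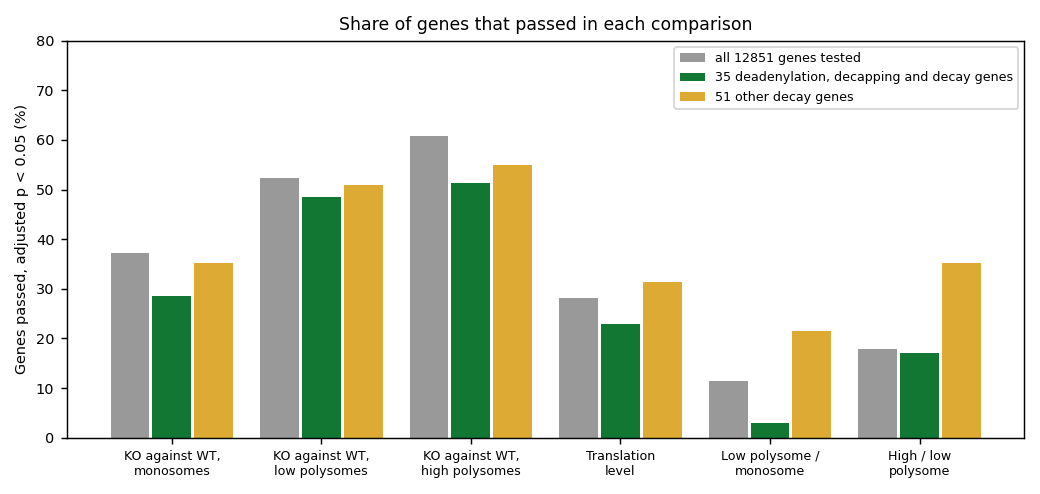
Share of genes that passed at an adjusted p under 0.05 (y axis, percent) in each comparison of Dgcr8 KO with WT cells (x axis), for all genes tested (grey), the 35 genes of deadenylation, decapping and decay (green) and 51 other decay genes (yellow). The green bar lies under the grey one in each comparison, at 2.86% against 11.4% for the low polysome to monosome ratio.

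Because the KO change in translation level varies with the length of the coding sequence (CDS) over all genes, the 35 genes were set beside genes of like length. Spearman's rho between CDS length and the change was 0.46 over the 35 genes and 0.56 over 11763 protein-coding genes, as a description across genes that share the same libraries. Of the 13 genes with a CDS of 2000 nt or more, 3 passed as higher (Edc4, Upf1 and Xrn2) and 1 as lower (Smg5), with a median of 0.30. Of the 22 shorter ones, 1 passed as higher (Edc3) and 3 as lower (Btg1, Cnot8 and Cnot9), with a median of 0.03. The shares that passed among all genes of these lengths were not counted. Whether these splits depart from them was therefore not tested. Against the median of all protein-coding genes in the same decile of CDS length, the 35 genes had a median difference of -0.12, and 14 lay above it. Btg1 (CDS 513 nt) lay 0.15 under its decile, at -1.09 against -0.94. Cnot8 (876 nt) lay 0.70 and Smg5 (3051 nt) 1.26 under theirs, the latter in a decile whose median was above 0, and Cnot9 lay 0.48 under. The higher genes lay above their deciles, Edc3 by 0.61, Upf1 by 0.35, Edc4 by 0.25 and Xrn2 by 0.11. The part of CDS length in any of these changes was not tested.

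**Figure D5:**
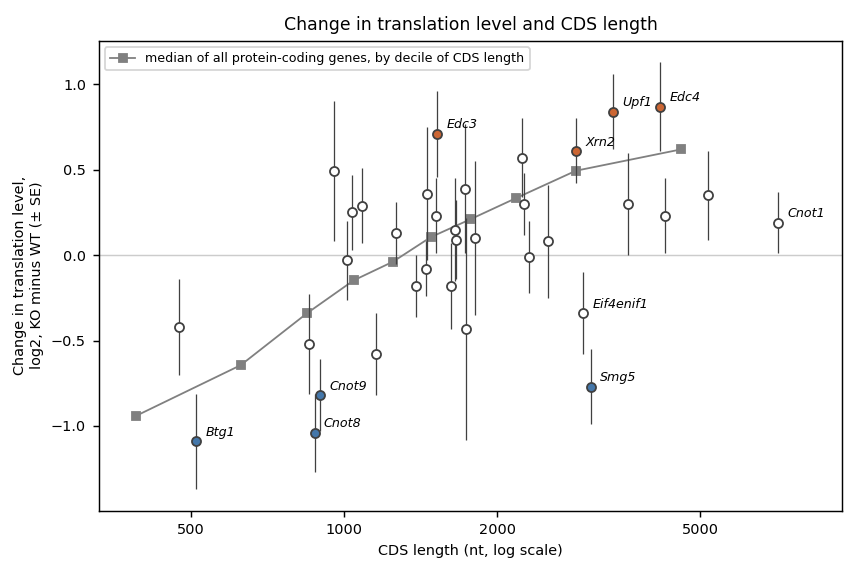
Change in translation level (y axis, log2, KO minus WT, limma estimate ± SE) against CDS length (x axis, nt, log scale) for the 35 genes, with orange points passed as higher, blue points passed as lower and white points not passed. Grey squares are the medians of all protein-coding genes tested in 10 equal groups by CDS length. Smg5 and Eif4enif1 lie well under genes of like length, and Btg1 lies close to the median of short genes.

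Other genes of mRNA decay were taken from 5 lists, of which 51 of 52 genes were tested. These genes were not set beside genes of like CDS length. The decile of protein-coding genes with the shortest CDSs had a median change in translation level of -0.94. The part of CDS length in the changes of these lists was not tested. For translation level 16 passed, 6 higher and 10 lower (31.4%, against 28.2% of all genes). The LSM ring, the heptamer that binds shortened poly(A) tails and activates decapping with PATL1, passed in full in low polysomes: 7 of 7 genes were lower, each more than 2-fold, with a median log2 change of -1.79. Of all genes in low polysomes 26.2% passed as lower, and 25% passed with more than a 2-fold change in either direction. For translation level 5 of the 7 passed as lower, with a median of -1.13, and Lsm2 changed most (-1.66, SE 0.18, adjusted p = 3.26e-09). Its reads stood at 156 ± 13.9 CPM in WT and 45.4 ± 3.5 CPM in KO high polysomes, and 163 ± 16.4 against 152 ± 8.1 CPM in monosomes (n = 3). Of the RNA exosome and its cofactors, which degrade messages from the 3′ end, 10 of 15 genes passed in high polysomes (66.7%, against 60.7% of all genes), 1 higher and 9 lower. Of all genes in high polysomes 29.1% passed as higher and 31.6% as lower. For translation level 2 of 15 exosome genes passed (13.3%, against 28.2% of all genes), both lower. Exosc2 had the larger change of these (-1.08, SE 0.23, adjusted p = 0.00036).

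Among the other NMD factors, 3 of 7 passed for translation level (42.9%, against 28.2% of all genes), 2 higher and 1 lower. Smg9 changed most (1.27, SE 0.37, adjusted p = 0.00811). Among other deadenylases and cap enzymes 3 of 10 passed (30%, near the share of all genes), 1 higher and 2 lower. The largest change there was in Pnrc2, which codes for a coactivator of decapping that binds UPF1 (-2.24, SE 0.27, adjusted p = 4.42e-08). Its level was 32.7 ± 2.98 CPM in WT and 8.19 ± 1.73 CPM in KO high polysomes, against 36 ± 1.16 and 43.6 ± 2.7 CPM in the monosomes (n = 3). Of 12 genes for 3′ UTR binding, poly(A) binding and uridylation 3 passed (25%), all higher, where 13% of all genes passed as higher. The largest change among them was in Pabpc1 (1.44, SE 0.18, adjusted p = 1.1e-07), which codes for the main cytoplasmic poly(A)-binding protein.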

How the data were processed

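RNA from monosome, low and high polysome fractions was sequenced as 3′ end (QuantSeq) libraries. Per the submitters' processing notes, reads were trimmed with cutadapt 1.14, aligned with STAR 2.5.3a to mm10 and counted with featureCounts 1.5.3. The authors kept reads with 1 alignment only, and the deposited values are raw counts per gene over GENCODE M14 exons, by strand, with ribosomal RNA genes removed. The sources used here name no removal of PCR copies, which therefore count as reads. The deposited table also gives a gene length in exonic bases, which was not used.

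Here, 92 spike-in entries were left out and the 12851 genes that reached 3 CPM in 3 libraries were fitted with limma-voom (limma 3.58.1, R 4.3.3) with TMM factors (edgeR 4.0.16), 1 mean per group and no block. limma, the filter and the interaction term follow the study's methods, whereas voom and TMM were chosen here. P-values are two-sided and adjusted by Benjamini-Hochberg across the 12851 genes. The fit was also run on simulated data, and no result given here rests on that run. Ratios per gradient used a prior count of 2. Symbols, transcripts and coordinates came from GENCODE M21 (GRCm38), where 51274 genes matched, with 1 principal transcript per gene. Alternatives were edgeR's quasi-likelihood test, DESeq2 1.42.0, other scalings, filters and samples, and replicate blocks.

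The 35 genes, the other lists and the tests were chosen with earlier results of these data known. Given with every library were genes past 2-fold in a fraction, genes passed for translation level, and Cnot1, Dcp2, Xrn1 and Ddx6. From each other list, the gene with the largest change that passed was named. Fractions of 1 gradient share their origin per the labels, and their deviations from group means correlated at 0.033 to 0.245. Same-numbered WT and KO libraries correlated at -0.013 to 0.193 and were not treated as pairs.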

Additional observations from a re-analysis of the deposited data

Results flagged for a closer look

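Effects of genotype that differed between fractions, by the interaction test in limma, were singled out. For the high polysome to monosome ratio these were Btg1 (log2 -1.09), Cnot8 (-1.04), Cnot9 (-0.82), Smg5 (-0.77), Xrn2 (0.61), Edc3 (0.71), Upf1 (0.84) and Edc4 (0.87). For the low polysome to monosome ratio Btg1 alone differed (-1.07). For the high to low polysome ratio they were Cnot8 (-0.88), Lsm14b (-0.73), Cnot3 (0.69), Edc3 (0.91), Upf1 (0.94) and Edc4 (0.96). The shares among the 35 genes, 22.9%, 2.86% and 17.1%, were at or under those of all genes, 28.2%, 11.4% and 17.8%.

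Spike-in entries, which no comparison uses, held 13 to at most 56 reads per library, or 0.000522 to 0.00215% of the counts, in libraries of both genotypes.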

How the results depend on the processing

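Over all alternatives none turned the direction of a call for any of the 35 genes. Requiring a 2-fold change besides the adjusted p left 2 genes for translation level, 3 in low polysomes and 1 in high polysomes. It left 0 in monosomes and 0 for the high to low ratio, where 11 genes each had an unadjusted p under 0.05 in limma. Within a genotype it left 5 (WT) and 6 (KO). Testing all 25635 genes with a count gave 5 genes for translation level in place of 8 (1 higher, 4 lower). Scaling by totals gave 2 genes for low polysomes over monosomes, 10 for high over low polysomes (4 higher, 6 lower), and 9 lower and 0 higher for translation level. By this scaling 5 genes were higher and 11 lower in the high fraction (9 and 9 with TMM), 7 and 1 in monosomes (6 and 4), and 5 and 14 for the level within KO cells (7 and 9). With the gradient as a replicate block, which applies to comparisons within a gradient, 2 genes passed for low polysomes over monosomes and 10 for translation level. Besides the calls named above, it added Cnot10 for the high to low polysome ratio (0.55, adjusted p = 0.0324) and Pan2, Pan3 and Btg2 for the KO translation level, and it changed no other call. With the replicate number as a block, translation level gave 9 genes. edgeR and DESeq2 also gave 9, the added gene being Cnot10 (adjusted p = 0.0475 and 0.0485).

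Leaving out each gradient in turn gave 5 to 8 genes for translation level (fewest without KO gradient 3), 0 to 2 for low polysomes over monosomes and 5 to 8 for high over low polysomes. Within fractions it gave 6 to 10 genes in monosomes (fewest without WT gradient 3), 14 to 18 in the low fraction and 15 to 19 in the high fraction. Within genotypes it gave 15 to 19 (WT) and 11 to 16 (KO). The count of 0 arose without WT gradient 3, where Btg1 had an adjusted p of 0.0722 in limma. Depth limits Dcp1b, Zfp36, Zfp36l2 and Dcp1a, with 3 to 17 reads in their lowest library, and the monosome libraries, which are the smallest.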
